A study of Mus musculus with 4 samples.

Results

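The genes described here are 10 classic transcriptional targets of the tumour suppressor p53, Cdkn1a, Mdm2, Phlda3, Trp53inp1, Ccng1, Bax, Gdf15, Btg2, Eda2r and Zmat3, in the livers of mice treated with aristolochic acid type I (AAI). They were chosen by name, and every probe carrying one of these names was taken, which gave 18 probes for 10 of the 37074 gene names on the array. Wild-type C57BL/6 mice, 6 weeks old, received intraperitoneal injections over 3 weeks, with AAI on 5 days a week or with the vehicle, corn oil. The 4 groups were females given AAI at 5 mg/kg/day, females given corn oil, males given AAI at 2 mg/kg/day and males given corn oil. Liver RNA of 5 mice was pooled in equal amounts for each group and hybridized to 1 single-colour expression array. The mice of a pool cannot be told apart, no group has a second array, and the dose differed between the sexes, so that sex and dose cannot be told apart in any comparison of the AAI-treated pools. No test was possible and no p-value is given.

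AAI is a plant nitrophenanthrene acid that is reduced in liver and kidney to a reactive form, which binds to purine bases of DNA. DNA damage stabilizes p53 by releasing it from its ubiquitin ligase Mdm2, and p53 then binds paired half-sites in its target genes and switches them on. The targets stop the cell cycle, promote cell death, repair DNA or, as Mdm2 does, shut p53 off again. In liver, several of them also are known to respond to fasting, glucocorticoids and nutrient stress without p53.

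Signals are given as log2 of the processed intensity after quantile normalization over the 4 arrays, and a ratio is the AAI-treated minus the corn oil-treated value of the same sex on that scale. The brightest probe stands for a gene, and a gene is counted as higher or lower at a log2 ratio of 1, which is 2-fold, or more. As a technical measure of error, the SD between the ratios of probes that share a gene name was taken, and its median was 0.25 in females (9109 genes), 0.24 in males (8602 genes) and 0.23 between the corn oil-treated pools (8876 genes). These SDs hold no variation between mice. Of the 18 probes, 16 were well above background on all 4 arrays, and 6 of the 10 genes had more than 1 probe.

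The tissue label was checked with 8 hepatocyte genes, among them albumin (Alb) and transthyretin (Ttr), which were above background on every array and had median ratios of 0.08 in females and 0.06 in males. Genes of other tissues were not level. All 10 skeletal muscle markers were higher in AAI-treated mice of both sexes by their brightest probes. Their summed linear signal was 1307 with corn oil and 2.908e+04 with AAI in females, and 3565 and 1.993e+05 in males. Dimmer probes of Tnnt3 gave ratios of 6.69 in females and 6.27 and 6.45 in males. Those of Myh2 (0.32 in females, −0.76 in males) and Mylpf (0.51 and 0.46) did not follow. Those of Myh4 gave 0.12 and 0.77 in females and 0.22 and 2.32 in males. Adrenal markers summed to 5240 with corn oil and 4.42e+04 with AAI in males, but to 3190 and 3172 in females. Brown fat markers summed to 1.35e+04 and 5.295e+04 in males and to 564.8 and 3274 in females, where the defining gene Ucp1 was above background in neither pool. The brown fat genes did not move as 1 group. In males Ucp1, Cidea, Adipoq and Cox8b were higher with AAI. There Elovl3, which made up most of the sum with corn oil, read 13.58 with corn oil and 7.87 with AAI (ratio −5.71). The brightest Plin1 probe had ratios of −0.67 in females and −0.72 in males, but a second Plin1 probe gave 0.40 and 2.15. Most of the sum of the AAI-treated females was Cox8b, with 11.49 against 6.02. Between the corn oil-treated pools Elovl3 was 59.1-fold higher in males, where Ucp1 read 4.98. The sums of the corn oil-treated males and of the AAI-treated females thus did not follow Ucp1. The muscle signal was higher in the AAI-treated pools of both sexes and the adrenal signal in that of males alone, and the part of either in the ratios of Phlda3 and Ccng1 was not tested. In pooled tissue RNA, more or fewer cells of a type and more or less RNA per cell cannot be told apart.

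Where probes of 1 gene lie matters here, because the probes of Cdkn1a and Btg2 gave different ratios. The first 30 of the 60 bases of each probe that the results turn on are shown 5′ to 3′, with the transcript named by the array design and the position of the probe in it, and with coordinates of mouse genome build mm9. The scanner files name no exon or UTR for them.
Cdkn1a, NM_007669, position 1619, plus strand, chr17:29237377-29237436: ctaagggagctcacaggacactgagcaatg
Cdkn1a, ENSMUST00000122348, position 147, plus strand, chr17:29235299-29235358: tggggtagtttccatagtgacccgggtcct
Cdkn1a, NM_001111099, position 55, plus strand, chr17:29227986-29228045: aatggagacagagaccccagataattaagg
Phlda3, NM_013750, position 1397, plus strand, chr1:137665642-137665701: gtaagggttggccctttaccatttcatgct
Ccng1, NM_009831, position 3054, minus strand, chr11:40562427-40562486: agaaataaaattgctgagtttatctgcaaa
Btg2, NM_007570, position 2371, minus strand, chr1:135972094-135972153: ttaaatcttcaattctttactgtccttgtt
Btg2, NM_007570, position 637, minus strand, chr1:135973828-135973887: ccgtatacctcaacctggggaactgtattt
Trp53inp1, NM_021897, position 5041, plus strand, chr4:11101174-11101233: gtgtgtttatgggcacaatgttttctctca
Trp53inp1, NM_021897, position 659, plus strand, chr4:11092530-11092589: aactcctgtcctggtctcagtgaggcgagt
Mdm2, NM_001288586, position 2875, minus strand, chr10:117126010-117126069: ggcagcttcagtcccgatttacaataaagt
Mdm2, NM_001288586, position 322, minus strand, chr10:117139375-117142253: aaagtccgttggagcgcaaaacgacactta

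The 60 bases of the second Mdm2 probe span 2879 bases of the genome, so this probe crosses at least 1 exon junction. So does a Bax probe at position 174 of NM_007527, which spans 156 bases.

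Promoters of 8 of the 10 genes were found in the RefSeq table of build GRCm38.p6, as 300 bases each from 250 before to 50 after a start site. They were searched for the p53 half-site consensus, which reads the same on both strands. It occurred in the promoters of 4 genes, Cdkn1a, Mdm2, Ccng1 and Bax, and 4 of the 10 promoters listed for the 8 genes (40%) held one, against 10 of 57 promoters (17.5%) of the 46 other p53 targets described further on and 8.36% of all 32851 promoters in the table. A pair of half-sites at most 13 bases apart occurred in 1 Cdkn1a promoter, in 0 of the 57 promoters of other targets and in 24 of all promoters (0.0731%). A second Cdkn1a promoter, at chr17:29093519-29093818, held no half-site. The promoters were not matched to the transcripts that the probes are named for. The stretches around the matches are shown with the half-sites in capitals. A match describes these letters only, and p53 is also known to bind outside such windows, for example in first introns.
Cdkn1a, plus strand, chr17:29090881-29090962: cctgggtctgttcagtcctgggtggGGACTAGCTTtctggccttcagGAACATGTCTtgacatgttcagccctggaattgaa
Mdm2, minus strand, chr10:117710910-117710969: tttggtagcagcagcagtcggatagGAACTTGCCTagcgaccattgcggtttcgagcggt
Ccng1, minus strand, chr11:40755437-40755496: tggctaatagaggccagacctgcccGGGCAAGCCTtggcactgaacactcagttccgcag
Bax, minus strand, chr7:45467065-45467124: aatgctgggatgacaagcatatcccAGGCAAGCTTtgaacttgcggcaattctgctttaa

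In AAI-treated females 1 of the 10 p53 targets was at least 2-fold higher than in corn oil-treated females, Phlda3, and 2 were at least 2-fold lower, Trp53inp1 and Cdkn1a. Over all 31636 genes that entered, 1.45% were at least 2-fold higher and 3.08% at least 2-fold lower. In AAI-treated males 2 targets were at least 2-fold higher, Phlda3 and Ccng1, and none was lower, against 3.47% higher and 4.6% lower of all 30489 genes. The median ratio of the 10 targets was 0.25 in females and 0.12 in males, where the medians of all genes were 0.04 and 0.00. The targets did not share a direction in either sex, with 6 of 10 ratios above 0 in females and 7 of 10 in males.

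**Figure D1:**
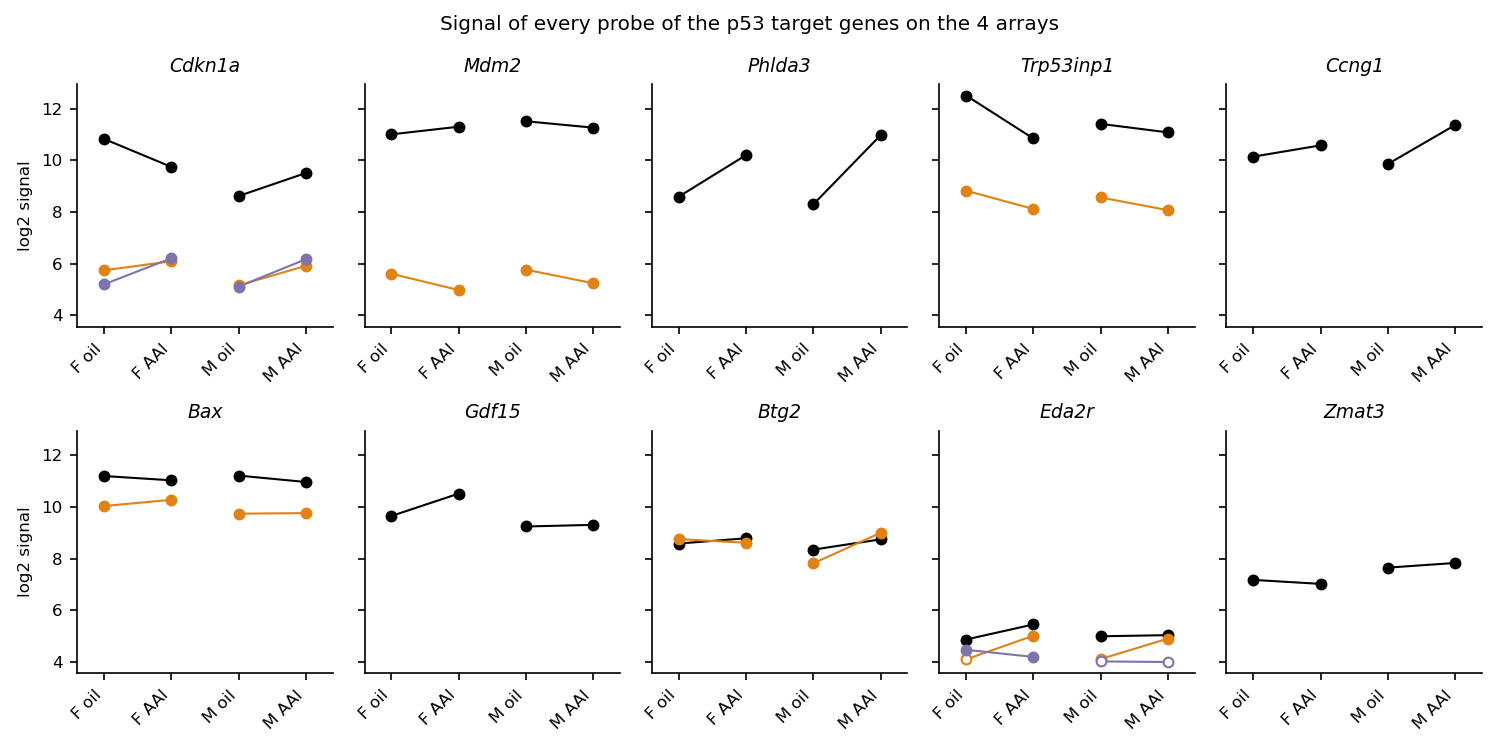
Log2 signal (vertical axis) of each probe of the 10 p53 target genes on the 4 arrays (F, females; M, males; oil, corn oil; AAI, aristolochic acid type I). Black marks the brightest probe of a gene, orange and violet its other probes, lines join the pools of 1 sex, and open points were not well above background. Phlda3 was higher in both AAI-treated pools, and the 3 Cdkn1a probes differed in direction in females.

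Phlda3 was the only target at least 2-fold higher in both sexes by its brightest probe. It encodes a small pleckstrin homology domain protein that competes with the kinase Akt for membrane lipids and so restrains Akt signalling. Its log2 signal in females was 8.60 with corn oil and 10.20 with AAI, a ratio of 1.61 (3.05-fold). In males it was 8.30 and 10.97, a ratio of 2.67 (6.38-fold). Both AAI-treated pools lay above both corn oil-treated pools. Its ratio ranked 79th highest of 29676 genes above background on both female arrays and 176th highest of 28394 in males. The gene had a single probe, so no second probe checks these values.

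Ccng1 encodes cyclin G1, a partner of protein phosphatase 2A that acts on Mdm2. In males its signal was 9.86 with corn oil and 11.37 with AAI, a ratio of 1.51 (2.84-fold) that ranked 397th of 28394. In females it was 10.15 and 10.58, a ratio of 0.44 (1.35-fold), below the 2-fold threshold. Its single probe was higher in the AAI-treated pool of each sex, and the AAI-treated males had the highest value of the 4 pools.

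Cdkn1a encodes p21, the inhibitor of cyclin-dependent kinases through which p53 halts the cell cycle. Its 3 probes did not give 1 answer. The brightest, at position 1619 of NM_007669, read 10.83 with corn oil and 9.75 with AAI in females, a ratio of −1.08 (2.12-fold lower), and 8.62 and 9.51 in males, a ratio of 0.89 (1.85-fold higher). On this probe the corn oil-treated females had the highest signal of the 4 pools and the corn oil-treated males the lowest. The probe at position 55 of NM_001111099 read 5.21 and 6.21 in females and 5.11 and 6.18 in males, which are ratios of 1.01 and 1.07, so here both AAI-treated pools were higher by about the same amount. The probe at position 147 of ENSMUST00000122348 read 5.75 and 6.10 in females and 5.17 and 5.92 in males, with ratios of 0.35 and 0.75. Both dimmer probes were thus higher in the AAI-treated pool of each sex, and only the brightest was lower in females. With the mean over the probes in place of the brightest, which gives dim and bright probes the same weight, the ratio in females was 0.093. The brightest probe also missed the 2-fold threshold in females with the normexp background correction, at −0.85, and without the scanner software's trend correction, at −0.91. As deposited, the array of the corn oil-treated females had this trend correction and that of the AAI-treated females did not.

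Btg2, which slows growth and promotes shortening of mRNA tails, had probes that differed in males. The probe at position 637 read 7.82 with corn oil and 9.0 with AAI in males, a ratio of 1.18 (2.27-fold), and the brighter probe at position 2371 read 8.35 and 8.74, a ratio of 0.40. In females the first read 8.75 and 8.61 and the second 8.58 and 8.79, ratios of −0.14 and 0.20. Both probes were higher in AAI-treated males, and both female ratios were within the SD between probes of 1 gene.

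Mdm2, the ubiquitin ligase that degrades p53 and is itself a p53 target, was below the 2-fold threshold on both probes. The probe at position 2875 read 11.01 with corn oil and 11.30 with AAI in females and 11.51 and 11.27 in males, ratios of 0.30 and −0.25. The probe across an exon junction, at position 322, read 5.61 and 4.98 in females and 5.77 and 5.24 in males, ratios of −0.63 and −0.53. The junction probe was lower in both AAI-treated pools, and the other was lower in males alone.

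**Figure D2:**
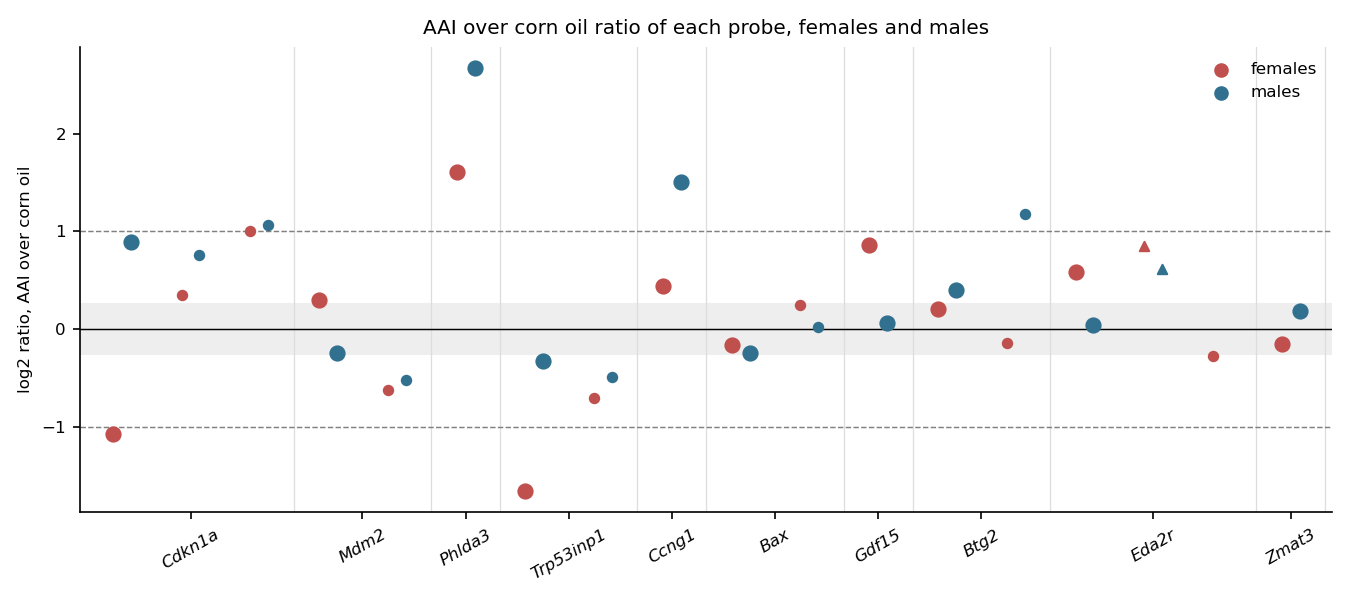
AAI over corn oil log2 ratio (vertical axis) for each probe of the 10 genes, in females (red) and males (blue). Large points mark the brightest probe of a gene and small points its other probes. Triangles mark a nominal lower bound where the corn oil-treated pool was not above background. Dashed lines mark the 2-fold threshold, and the grey band the median SD of 0.25 between probes of 1 gene in females. Phlda3 lay above the threshold in both sexes, at 1.61 and 2.67, and Mdm2, Bax, Gdf15, Eda2r and Zmat3 did not pass it with any probe.

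Of the targets that act in cell death, Trp53inp1 stood out as lower. It encodes a nuclear protein that promotes phosphorylation of p53 and also acts in autophagy. The probe at position 5041 read 12.51 with corn oil and 10.85 with AAI in females, a ratio of −1.66 (3.17-fold lower), the 143rd lowest of 29676 genes. In males it read 11.41 and 11.08, a ratio of −0.33. The probe at position 659 read 8.83 and 8.12 in females and 8.57 and 8.08 in males, ratios of −0.71 and −0.49. All 4 ratios were below 0, and on both probes the corn oil-treated females had the highest signal of the 4 pools.

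Bax, the effector that permeabilizes the outer mitochondrial membrane, differed little between pools. Its probe at position 752 read 11.19 with corn oil and 11.03 with AAI in females and 11.21 and 10.96 in males, ratios of −0.17 and −0.25, and the junction probe at position 174 gave 0.24 and 0.02. Each of these lay close to or within the SD between probes. Eda2r, a death domain receptor of the tumour necrosis factor family, was near the detection limit. Its brightest probe read 4.87 and 5.45 in females, then 4.99 and 5.04 in males (NM_001161433, position 1343). A second Eda2r probe, at position 4451 of NM_001161432, was above background in both AAI-treated pools, at 5.01 in females and 4.90 in males. It was above background in neither corn oil-treated pool, so its ratios are nominal bounds of 1.81-fold and 1.53-fold higher. These are not strict bounds, because other probes not above background read up to at least 4.49 (Adipoq, females) and 4.55 (Ercc6, males) with corn oil. The third probe, at position 935, read 4.47 and 4.19 in females and was not above background in males.

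Gdf15, a secreted stress cytokine of the TGF-beta superfamily that lowers food intake through the brainstem, had log2 signals of 9.65 with corn oil and 10.51 with AAI in females. That is a ratio of 0.86 (1.82-fold), the 574th highest of 29676 genes and short of the 2-fold threshold. In males the values were 9.24 and 9.30, a ratio of 0.06. The AAI-treated females had the highest signal of the 4 pools, and the other 3 pools lay within 9.24 to 9.65. Zmat3, a zinc finger protein that binds RNA and regulates splicing, read 7.17 and 7.02 in females and 7.65 and 7.83 in males, ratios of −0.15 and 0.18 that lay within the SD between probes.

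**Figure D3:**
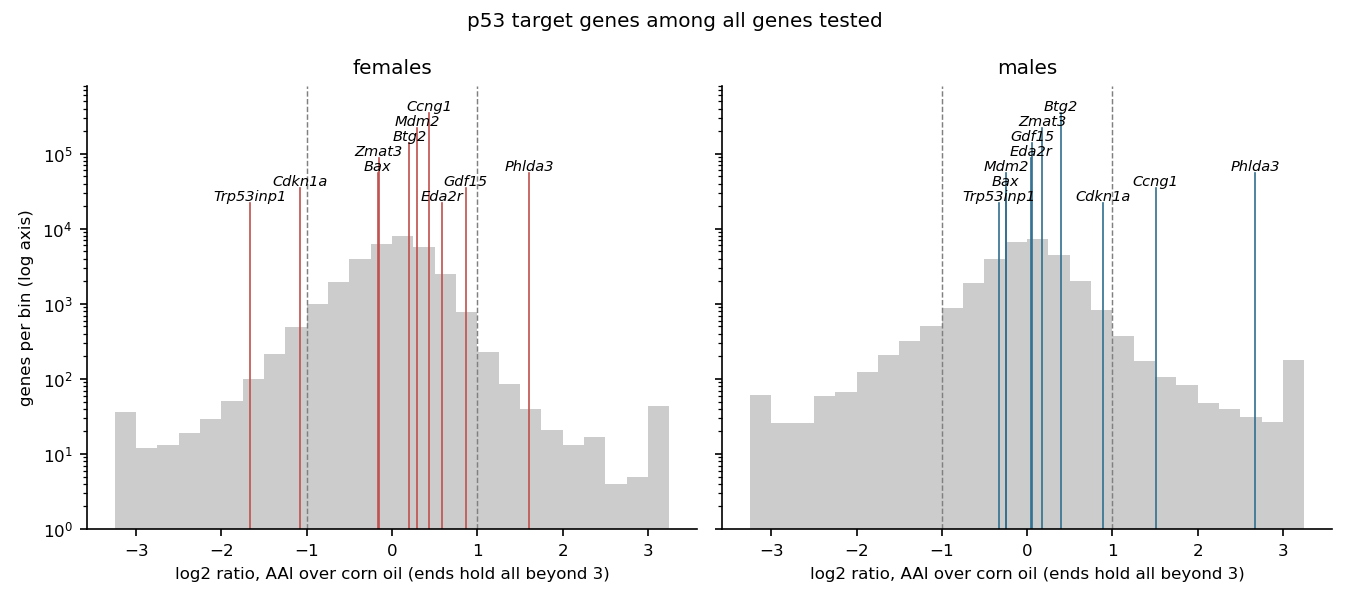
Distribution of the log2 ratios of all genes tested (grey, 31636 in females and 30489 in males, number of genes per bin on a log axis) with the 10 p53 target genes marked by lines. The dashed lines mark the 2-fold threshold. Phlda3 lay beyond the upper threshold in both sexes, Ccng1 in males but not in females, and Trp53inp1 and Cdkn1a beyond the lower threshold in females.

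The corn oil-treated pools, which received no AAI, already differed in some targets between the sexes. Cdkn1a read 10.83 in females and 8.62 in males on its brightest probe, a ratio of males over females of −2.21 (4.62-fold lower in males), the 49th lowest of 29075 genes. The other Cdkn1a probes gave −0.58 and −0.09. Trp53inp1 was 2.14-fold lower in males on its brightest probe, with a ratio of −1.10, and −0.26 on the other. No target was at least 2-fold higher in males and these 2 were at least 2-fold lower, against 3.92% and 1.84% of all 30846 genes. The ratios of the other 8 targets lay between −0.41 (Gdf15) and 0.51 (Mdm2), and the median of the 10 was −0.26 against −0.03 over all genes. Since the corn oil-treated pools are also the denominators of the AAI ratios, a high signal in corn oil-treated females enters both kinds of ratio of Cdkn1a and Trp53inp1.

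The p53 gene itself and its regulators were examined as a further list. Trp53 read 8.52 with corn oil and 8.18 with AAI in females and 8.61 in both male pools, ratios of −0.33 and −0.00. Mdm4, the inhibitory partner of Mdm2, had ratios of −0.20 and 0.01, and the phosphatase gene Ppm1d, which resets the damage response, −0.36 and 0.07. The kinase gene Atm, which senses double-strand breaks, had ratios of −0.20 in females and −1.44 in males on its brightest probe, with 0.04 and −0.33 on the other. Chek2, a kinase downstream of Atm, was not above background on any array.

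Of the 18 regulators tested, 2 were at least 2-fold higher in females and the same 2 in males, against 1.45% and 3.47% of all genes. Trp63, a p53 family member, had ratios of 1.86 and 2.91, and Crebbp, an acetyltransferase and p53 coactivator, 1.58 and 2.94. For both genes a second probe above background did not show this, with −0.42 and 0.39 for Trp63 and 0.02 and −0.06 for Crebbp. Atm was the only regulator at least 2-fold lower by its brightest probe, in males, where 4.6% of all genes were lower. The second Atm probe was not 2-fold lower. Dimmer probes past 2-fold, chosen after their values were seen, were those of Trp73 in females (−1.57, brightest 0.057) and Kat5 in males (−1.29, brightest 0.32). The medians of the list were −0.14 in females and −0.12 in males.

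A broader set of 46 other known p53 targets, of which 45 were tested in each sex, had median ratios of 0.07 in females and 0.28 in males. The medians of all genes were 0.04 and 0.00. Of all genes 1.45% were at least 2-fold higher in females and 3.08% lower. Of the other p53 targets none was at least 2-fold higher in females and 2 were lower. These were Plk3, a stress-activated kinase, with 11.22 against 9.47 in AAI-treated females (ratio −1.75), and Ddit4, an inhibitor of mTOR complex 1, with 12.22 and 10.54 (ratio −1.67). In males 3 were at least 2-fold higher and none was lower, against 3.47% higher and 4.6% lower of all genes. Ak1, an adenylate kinase that is abundant in skeletal muscle, read 9.61 and 12.31 (ratio 2.70), Gadd45a, a damage-inducible growth arrest gene, 7.30 and 8.59 (ratio 1.29), and the mitochondrial reductase gene Fdxr 10.19 and 11.43 (ratio 1.24). In females these genes had ratios of 0.71, 0.36 and 0.33. The 15 apoptosis genes among the 46, such as the BH3-only gene Bbc3 with ratios of 0.67 and 0.29, had no member past 2-fold in either sex by its brightest probe. Fas, a death receptor gene chosen here after its values were seen, had a ratio of −0.50 in males on its brightest probe and of −1.97 and −0.59 on 2 others.

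Few genes downstream of p21 and of DNA damage passed 2-fold. Of 11 cell division genes that p21 holds down, none was at least 2-fold higher or lower by its brightest probe in females, and in males Ccnb1, the mitotic cyclin B1, was lower on its brightest probe (8.91 and 7.51, ratio −1.40) but had −0.37 and 0.01 on 2 other probes. The median was −0.27 in each sex. Nucleotide excision repair genes remove bulky adducts from DNA. Of those tested, 25 in females and 24 in males, none was at least 2-fold higher or lower by its brightest probe. Their medians were 0.07 and 0.16. Of all genes, 1.45% were at least 2-fold higher and 3.08% lower in females, and 3.47% and 4.6% in males. At those shares, lists of this size would hold few such genes.

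**Figure D4:**
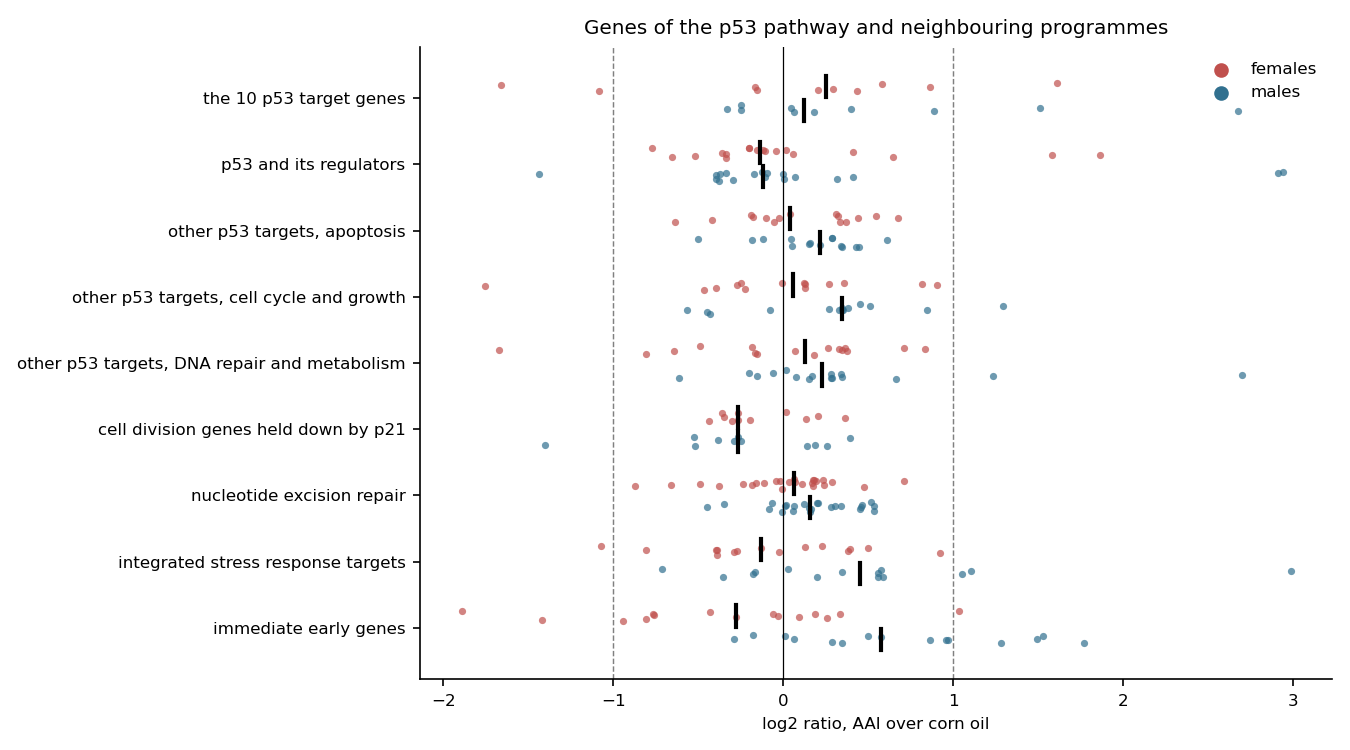
AAI over corn oil log2 ratio (horizontal axis) of the genes of each list, in females (red) and males (blue), with 1 point per gene by its brightest probe. Black bars mark the median of a list and dashed lines the 2-fold threshold. The medians of the 10 p53 target genes were 0.25 and 0.12, and those of the immediate early genes −0.28 in females and 0.57 in males.

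Some of the 10 targets also belong to programmes that other stresses switch on, so a pair of such lists was set beside them. Of the 15 immediate early genes, which respond to signals within minutes, 4 were at least 2-fold higher in males, against 3.47% of all genes. These were Fos (ratio 1.77), the nuclear receptor gene Nr4a1 (1.53), Myc (1.49) and Ier3 (1.28). In females Myc was higher (1.03), and Nr4a1 (−1.89) and Klf2 (−1.42) were lower, against 1.45% higher and 3.08% lower of all genes. For Myc a second probe gave 0.51 in females and 0.38 in males. The list had medians of −0.28 in females and 0.57 in males. Of the integrated stress response targets, which follow translational stress, 15 were tested in females and 14 in males. In males 3 were higher, Vldlr (2.99), Nupr1 (1.11) and Phgdh (1.05), against 3.47% of all genes. In females 1 was lower, Cebpb (−1.07), against 3.08% of all genes. The medians were −0.13 in females and 0.45 in males. A second probe gave 1.93 for Vldlr and 0.31 for Nupr1 in males. Psat1 and Junb, chosen after their values were seen, were not past 2-fold in males by the brightest probe (0.56 and −0.29), but another probe of Psat1 gave 1.55 and others of Junb ranged from −1.90 to 1.11.

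Blood and immune cell signal also moved with treatment. Red cell markers summed to 2.169e+05 with corn oil and 5.586e+04 with AAI in males and to 2.77e+05 and 2.026e+05 in females. In males 3 of 4 were at least 2-fold lower, against 4.6% of all genes. Of 7 leukocyte markers, 2 were at least 2-fold lower in females, against 3.08% of all genes. These were Adgre1 (−1.39) and Clec4f (−1.41), which are macrophage and Kupffer cell genes. In males their ratios were −0.91 and −0.89, and a second Adgre1 probe gave 0.22. The list summed to 1.917e+04 with corn oil and 1.035e+04 with AAI in females, and to 1.692e+04 and 1.173e+04 in males. Clec4f was the brightest of the list, at 13.44 and 12.03 in females. In each sex 5 markers had ratios below 0 and 2 above, in females Itgam (0.66) and Cd79a (0.33). Kidney and pancreas markers had no gene past 2-fold in either sex. At the shares of all genes, lists this short would hold few or none. The part of any of these cells in the ratios of the p53 targets was not tested.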

How the data were processed

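The authors scanned 4 single-colour arrays and quantified them with Feature Extraction 10.5.1.1. The deposited values are linear spot intensity, not normalized between arrays, and a table of the series that holds the authors' quantile normalized intensity. The spot intensity had a multiplicative trend correction on 3 of 4 arrays. The array without it was that of the AAI-treated females, where processed and background-subtracted signal were equal at 93.7% of spots. On the other arrays this held for 6.66% to 13.3% of spots. The AAI ratios in females thus set an uncorrected array against a corrected array, and those in males did not. The columns of per-sample values that were not used numbered 0. Each array had 59305 non-control spots, of which 70 to 234 were marked as outliers, none was saturated, and 74.7% to 81.5% of probes were well above background.

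From the deposited intensity, log2 of the processed signal was taken without control and outlier spots, averaged over the spots of a probe and quantile normalized over the 4 arrays (56495 of 56605 probes), as the study's methods name it. After the data were seen, 103 probes whose processed signal was the background value, within 1%, although the background-subtracted signal was over 2 times it were left out of all comparisons. None was a probe of a p53 target. A gene was represented by its brightest probe, and it entered when either array of the comparison had it well above background. Where the other did not, the ratio is a nominal lower bound. It was taken against the higher of the probe's own value there and the lowest value of any probe marked well above background there. Some probes not above background read higher than that lowest value, so the bound is not strict. The number of arrays, 1 per group, limits the precision, and the software's error of a spot of the 18 probes was 10.0% to 36.1% of its signal.

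All 10 targets were named, and of the 16 other lists each gene at least 2-fold higher or lower in either sex, at most 4 per list and sex, with Trp53, Mdm4, Atm, Chek2 and Ppm1d whatever their ratio. For the lists of cell type markers mainly sums and counts are given. The 10 genes and the lists were chosen with earlier results of these data known. Alternatives were 75th percentile scaling, normexp background correction (limma 3.58.1 in R 4.3.3, offset 50), no trend correction (signal floored at 1), the authors' table, the mean over probes, no filter, and thresholds of 1.5-fold and 3-fold. Python 3.11.15 with numpy 2.4.6 and pandas 2.3.3 was used, and the steps were tested on simulated data.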

Additional observations from a re-analysis of the deposited data

Results flagged for a closer look

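The brightest probes of a pair of p53 targets had ratios of opposite sign in the sexes, each larger than the median SD between probes of 1 gene, though for Mdm2 by little (SDs of 0.25 in females and 0.24 in males). The ratio of Cdkn1a was −1.08 in females and 0.89 in males, a difference of 1.97 (males minus females). Its other probes, which were dimmer, were higher in both AAI-treated pools (0.35 and 1.01 in females, 0.75 and 1.07 in males). The ratio of Mdm2 was 0.30 in females and −0.25 in males, a difference of −0.54. Its other probe, which was dimmer, was lower in both (−0.63 and −0.53). In females Mdm2 was at 0.24 with 75th percentile scaling, 0.17 with normexp and 0.18 without trend correction, each within that SD, and in males it was at −0.19 with 75th percentile scaling. With the mean over probes it was −0.17 in females and −0.39 in males, with 1 sign in both sexes. With 1 array per group neither difference was tested, and the doses differed between the sexes.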

How the results depend on the processing

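Of the 10 p53 targets, 4 in females, 1 in males and 2 between the corn oil-treated pools had a ratio that crossed 0 under at least 1 alternative. Among those past 2-fold this happened only for Cdkn1a in females, at 0.093 with the mean over probes. Phlda3 stayed between 1.42 and 1.64 in females and between 2.36 and 2.72 in males, Ccng1 between 1.5 and 1.60 in males, and Trp53inp1 between −1.76 and −1.18 in females. The number of targets at least 2-fold lower in females was 2, and 1 with normexp, without trend correction, with the mean over probes or at 3-fold. Cdkn1a was then at −0.85 with normexp and −0.91 without trend correction. The number higher in females was 1, and 2 at 1.5-fold, and the number higher in males was 2, 3 at 1.5-fold and 1 at 3-fold. Of all 31636 genes in females, 2555 were higher at 1.5-fold. Of all 30489 in males, 3005 were higher at 1.5-fold and 471 at 3-fold. Between the corn oil-treated pools the number lower in males was 2, 1 at 3-fold and 0 with the mean over probes, where Cdkn1a was at −0.96.

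Of all genes, 31636 entered in females and 30489 in males, and 36974 in each without the filter on dim probes. With the main settings 459 were higher and 974 lower in females and 1058 and 1403 in males. These counts were 138 and 320, and 505 and 643, with normexp, 1068 and 1430, and 1783 and 2221, without the filter on dim probes, and 763 higher in females with the mean over probes. With 75th percentile scaling they were 695 and 740 in females and 1237 and 1342 in males. At 1.5-fold they were 2555 and 3146, and 3005 and 3391, and at 3-fold 123 and 221, and 471 and 501. Between the corn oil-treated pools 1210 were higher and 567 lower in males, and 475 and 203 with normexp, 1813 and 1247 without the filter, 1122 and 736 with 75th percentile scaling, 3165 and 2447 at 1.5-fold and 380 and 154 at 3-fold. Keeping the probes with a background value gave 468 and 978 in females and 1071 and 1424 in males. No paired analysis was possible because each group was 1 array, and no array could be left out for the same reason. Signals near background, as for Eda2r, limit what can be said of dim probes.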
